A study of Rattus norvegicus with 63 samples.

Results

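The insulin-like growth factor (IGF) system was followed in rat kidney through 9 genes: the binding proteins Igfbp1 to Igfbp6, the ligand Igf1, and the receptors Igf1r and Igf2r. They were chosen by gene symbol, with earlier results of these data known. They make up 9 of the 10621 gene symbols on either array type, and all their probe sets were used. A probe set is a group of short probes that together read 1 transcript. Total RNA of rat kidney was hybridised to Affymetrix arrays, and the value of a probe set is its signal, a linear intensity that the authors scaled per array. The rats at 0 h had no injection, and the others received methylprednisolone, a synthetic glucocorticoid, and were killed at 1 of 16 times between 0.25 and 72 h after it was injected. The labels give neither strain, sex, age, dose nor hour of day. Untreated rats exist at 0 h only, so the drug, the injection itself, elapsed time and hour of day cannot be told apart.

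The main array type gave 52 libraries: 4 untreated ones and 3 for every time after the injection. The second array type held 10 arrays, 4 of them untreated, with 3 from 2 h and 3 from 6 h. Nothing in the labels says that numbered samples are separate animals, so a p-value covers no more than the spread among these samples, and that spread may be technical. The labelled tissue showed its markers: 6 of 6 listed proximal tubule genes lay above the filter on dim probe sets, and so did 3 of 3 genes of the thick ascending limb. The median signal of an array was 65.6 to 83.3 (main type) or 38.8 to 45.0 (second type). The precision is limited by how many arrays there are. The main type held 15 probe sets of the 9 genes, of which 10, from 7 genes, passed the filter. Both probe sets of Igf1, both of Igfbp6 and 1 of 3 of Igfbp5 lay under it. The second type held 18, of which 15 passed, and none for Igfbp4.

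Igf1 acts through Igf1r, a tyrosine kinase receptor that signals through insulin receptor substrates and AKT to growth and survival. Igf2r, also the cation-independent mannose 6-phosphate receptor, clears the ligand Igf2 and carries lysosomal enzymes, and it has no kinase. The binding proteins hold IGFs in blood and tissue and can block or prolong their action. Glucocorticoids are known to induce Igfbp1 in liver, where FoxO factors bind its insulin response element.

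The promoters of the 3 genes with the largest changes are shown first, each as the 250 bases before the start site in the RefSeq annotation of assembly GRCr8. The Igfbp1 stretch is chr14:86261027-86261276 on the plus strand, the Igfbp5 stretch chr9:81914188-81914437 on the minus strand, and the Igf2r stretch chr1:50526628-50526877 on the plus strand. Capitals mark the matches to 4 motifs, which were chosen after the sequences had been read. In Igfbp1 they are CAAAACAA and TATTTTG, the arms of the insulin response element. In Igf2r they are CACGTG, an E-box, and Igfbp5 held no match.
Igfbp1: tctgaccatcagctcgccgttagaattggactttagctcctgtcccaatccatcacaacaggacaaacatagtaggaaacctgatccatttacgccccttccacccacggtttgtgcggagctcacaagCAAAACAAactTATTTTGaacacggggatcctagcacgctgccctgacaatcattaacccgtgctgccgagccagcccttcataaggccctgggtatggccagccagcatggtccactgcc
Igfbp5: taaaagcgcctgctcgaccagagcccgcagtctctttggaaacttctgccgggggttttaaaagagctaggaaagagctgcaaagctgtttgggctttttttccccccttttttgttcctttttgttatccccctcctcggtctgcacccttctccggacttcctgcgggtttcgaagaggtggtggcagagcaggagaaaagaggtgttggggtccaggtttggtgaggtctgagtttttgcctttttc
Igf2r: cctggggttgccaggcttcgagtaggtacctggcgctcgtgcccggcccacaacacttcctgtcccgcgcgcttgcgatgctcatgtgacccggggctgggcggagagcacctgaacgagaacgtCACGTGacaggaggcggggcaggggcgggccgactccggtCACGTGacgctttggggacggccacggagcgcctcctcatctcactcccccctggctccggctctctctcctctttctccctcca

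Both strands of all 33469 promoters in the table were searched over the same length, and all 9 members were in it. CAAAACAA occurred in 1.94% of promoters and, among the members, in Igfbp1 and Igf1. TATTTTG occurred in 4.46% and, among the members, in Igfbp1. The Igfbp1 copies lay 121 to 114 and 110 to 104 bases before the start. CACGTG occurred in 5.59% and in Igf1r, Igf2r and Igfbp2, with copies 125 to 120 and 85 to 80 bases before the start of Igf2r. The glucocorticoid receptor half-site TGTTCT occurred in 17.5% and in Igf1 and Igfbp6. A match is a description of these letters only, and no match says nothing about a factor. Igfbp1 and Igfbp3 are neighbouring protein-coding genes in this annotation, as are Igfbp2 and Igfbp5.

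Igfbp1, Igfbp4 and Igf1r rose and Igfbp5 and Igf2r fell at 2 to 4 h. Igfbp1 and Igfbp3 were higher at 5 to 8 h, where Igfbp5 and Igf2r were still lower. No member probe set passed the test against 0 h from 12 h onward. The Igfbp4 and Igf1r calls were lost without any of several single libraries, and Igfbp3 was called on the brighter of its probe sets only. Times were grouped into 5 windows and tested against 0 h with limma. Differences are given on the log2(signal + pseudocount) scale with their standard errors, and adjusted p-values are Benjamini-Hochberg values over all probe sets tested. At 2 to 4 h, 7 of 10 member probe sets passed the threshold of 0.05, 3 higher and 4 lower, against 9.96% of the 9520 tested. They came from 5 of 7 genes, and the 4 lower were the tested probe sets of Igfbp5 and Igf2r. At 5 to 8 h, 6 of 10 passed, from 4 of 7 genes, 2 higher and the same 4 lower, against 9.71%. Over any of the 16 times, 8 of 10 passed the F test, from 6 of 7 genes, against 16.1% of all. Since the members were chosen with earlier results of these data known, these shares are a description and no test. The median difference of the 10 was 0.06 at 2 to 4 h, beside -0.07 over all probe sets, and 0.02 beside -0.03 at 5 to 8 h.

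At 0.25 to 1 h none of the 10 passed (3 at an unadjusted p under 0.05; 0.662% of all passed). At 12 to 18 h none passed either (1 unadjusted; 0.389% of all). At 30 to 72 h none passed (3 unadjusted), and limma called 0% of all probe sets in that window, 518 of them at an unadjusted p under 0.05, whereas array weights gave 1. Between successive windows, 7 of 10 member probe sets differed from 0.25 to 1 h to 2 to 4 h (11.7% of all), 1 from 2 to 4 h to 5 to 8 h (3.1%), 6 from 5 to 8 h to 12 to 18 h (11.9%) and none from 12 to 18 h to 30 to 72 h (4 unadjusted; 0.914%). The successive windows share libraries with the tests against 0 h.

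**Figure D1:**
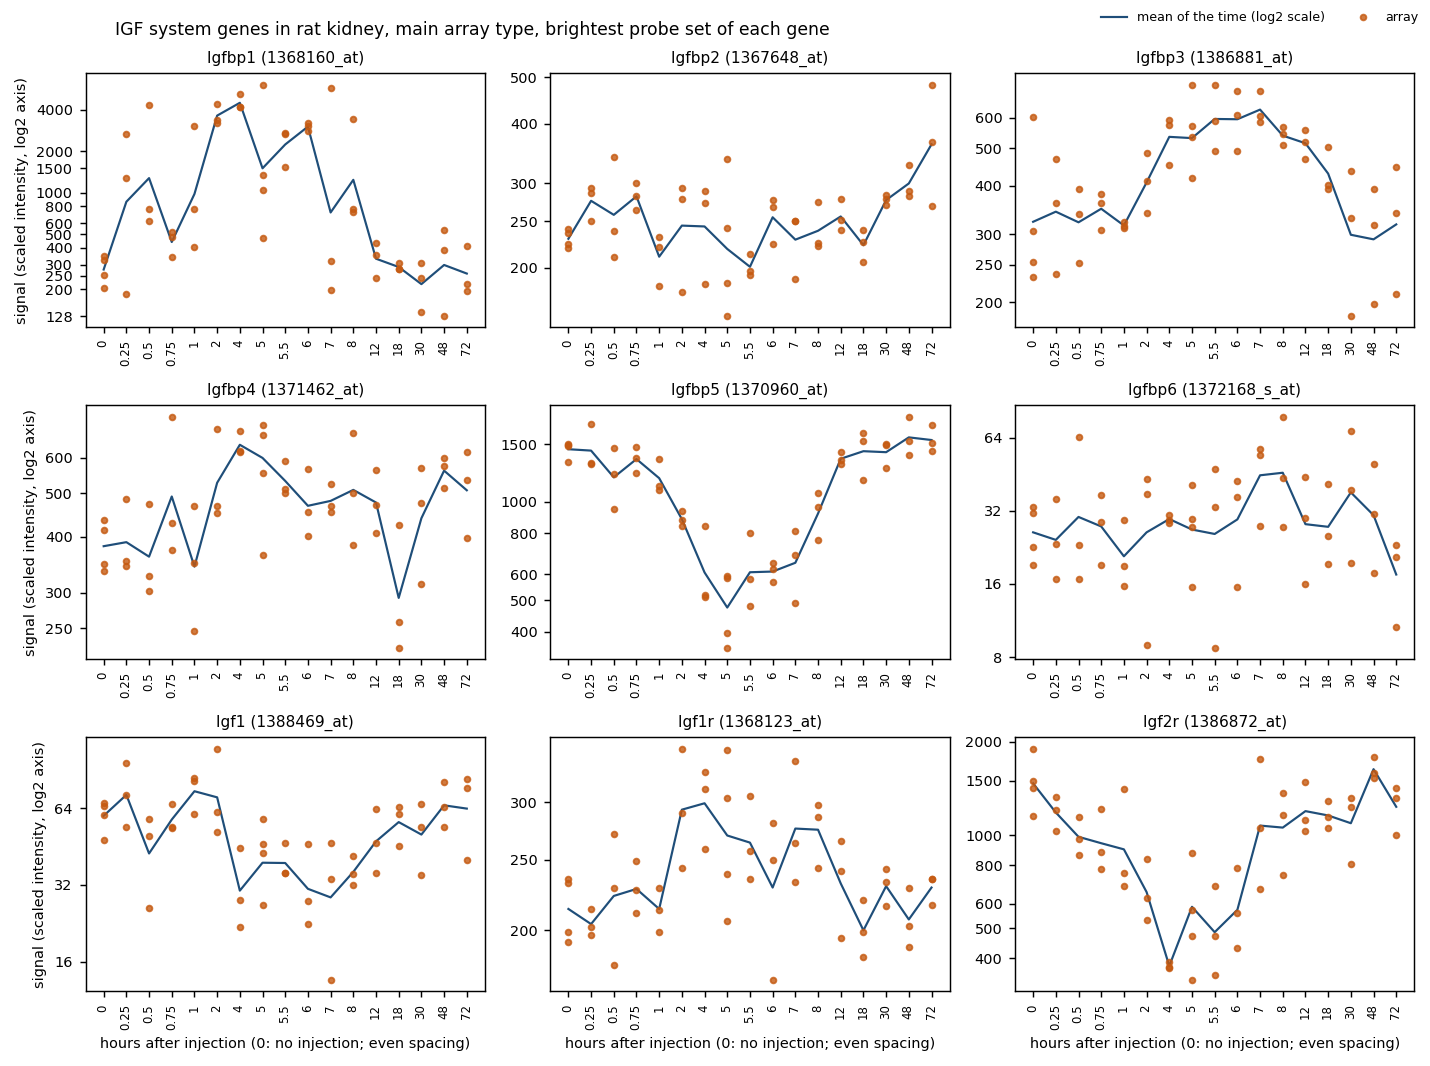
Signal of the brightest probe set of each gene (scaled intensity, log2 axis) in every main-type array against the hours after injection (evenly spaced, 0 is no injection); points are arrays and lines join the means of the times on the log2 scale. Igfbp1 reached 4484 at 4 h, while Igfbp5 and Igf2r had their lowest means at 5 and 4 h, 475 and 378.

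Igfbp1, a small binding protein that is rapidly regulated by hormones and feeding, made the largest change of the 10 tested probe sets. Its signals at 0 h were 348, 254, 327 and 205. They were 3341, 3213 and 4424 at 2 h and 4157, 5218 and 4156 at 4 h, so all 6 libraries lay far above the range at 0 h. The difference at 2 to 4 h was 3.82 ± 0.69, or 14.16-fold (adjusted p = 0.000129).

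Between these hours and recovery the libraries of one time disagreed at 5, 7 and 8 h and lay closer together at 5.5 and 6 h. Igfbp1 gave 2724, 2668 and 1541 at 5.5 h and 3045, 3188 and 2820 at 6 h. At 5 h it gave 1192, 6056 and 467, the first the average of arrays at 1347 and 1054. At 7 h it gave 198, 320 and 5710, and at 8 h 3423, 767 and 726. At 5.5 and 6 h every library was above 0 h, while at 7 h 1 of 3 stood far above the others and 2 lay within the range at 0 h or below it. The window of 5 to 8 h was 2.45 ± 0.60 above 0 h (adjusted p = 0.00455).

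Before 2 h the spread was also wide at 0.25, 0.5 and 1 h, and narrower at 0.75 h. Igfbp1 gave 1274, 2660 and 184 at 0.25 h, 620, 765 and 4356 at 0.5 h, 518, 345 and 475 at 0.75 h, and 403, 3040 and 762 at 1 h. In 10 of 12 libraries it lay above the highest 0 h value of 348. That count was not tested, and the window difference of 1.56 ± 0.61 did not pass (adjusted p = 0.516), although it did with array weights, which give libraries that deviate less weight (adjusted p = 0.0478). From 12 h the signals were 129 to 539 in all 15 libraries. The difference of 12 to 18 h from 5 to 8 h was -2.29 ± 0.51 (adjusted p = 0.00157).

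Fga, the fibrinogen alpha chain and an acute-phase gene, moved with Igfbp1 across libraries. It was over 1000 in 6 libraries while the median of their own time was under 1000, at 0.25 h (number 2), 0.5 h (number 3), 1 h (number 2), 5 h (number 2), 7 h (number 3) and 8 h (number 1). In these 6 Fga read 1579 to 4459 and Igfbp1 2660 to 6056. In 5 of the 6 libraries at 2 to 4 h Fga was also over 1000, and in the 4 at 0 h it was 11.4 to 68.5. At 5.5 and 6 h Fga was 69.8 to 778 with Igfbp1 still at 1541 to 3188, and from 12 h Fga was 26.9 to 100. Without the 6 libraries, which were picked after the data were seen, Igfbp1 was 184 to 1274 at 0.25 to 1 h and 198 to 3188 at 5 to 8 h. The differences from 0 h were then 0.93 (adjusted p = 0.388), 3.82 at 2 to 4 h (3.28e-10) and 1.81 at 5 to 8 h (9.13e-05). The step from 2 to 4 h to 5 to 8 h was -1.37 (adjusted p = 0.133) with them and -2.01 (2.11e-06) without them. That step also passed without 5 h number 2 or without 7 h number 3 alone. The 6 libraries held the highest Igfbp1 values of their windows, while libraries of high Fga at 2 to 4 h were kept. Leaving out the 6 therefore lowers Igfbp1 at 0.25 to 1 h and 5 to 8 h by construction. The larger step without them is no separate support. The times of the 6 libraries are those of the labels. Whether each label is right was not tested, nor was what sets these libraries apart.

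**Figure D2:**
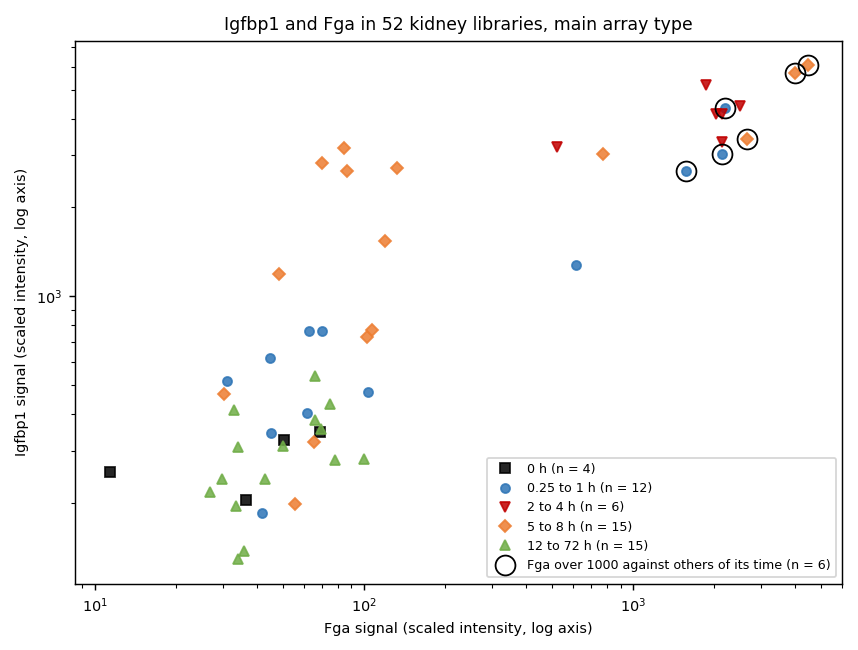
Igfbp1 signal against Fga signal (scaled intensity, both axes logarithmic) in 52 main-type libraries, with symbols for the windows and rings around the 6 libraries whose Fga exceeded 1000 against the median of their time. The ringed libraries had Igfbp1 at 2660 to 6056, and the 6 libraries at 5.5 and 6 h had Igfbp1 at 1541 to 3188 with Fga at 69.8 to 778.

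Hepatocyte RNA was looked for because Igfbp1 is a liver gene. Of 8 hepatocyte markers, 7 were on the array and 3 lay above the filter, and none was at 0. Their summed signal was 274 to 388 at 0 h (median 330) and 353 to 1651 at 2 to 4 h (median 390), the highest in 2 h number 2, where Alb (albumin) was 793. It was 351 to 571 at 5 to 8 h (median 491), 385 to 622 at 12 to 18 h (median 463) and 275 to 485 at 30 to 72 h (median 341). Igfbp1 in 2 h number 2 was 3213, the lowest of the 6 at 2 to 4 h, and without that library the difference at 2 to 4 h was 3.87 (adjusted p = 0.000294). The part of the rise of these markers at 5 to 8 h in the member results was not tested. The hepatocyte sum was not the only one high in 2 h number 2. Its adipocyte sum was the highest too, 186 beside a median of 64.8, with none of those genes above the filter. On the second type 2 h number 2 had the highest adipocyte sum (1208 beside a median of 706). There it was also highest for adrenal, thick ascending limb and collecting duct genes. What sets this library apart was not tested.

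Igfbp5, a matrix-bound binding protein, fell and came back. The brightest of its 3 probe sets (1370960_at) read 1326, 1495, 1477 and 1501 at 0 h. It read 879, 937 and 842 at 2 h, 845, 513 and 518 at 4 h, and 568, 624 and 648 at 6 h, and its lowest mean was 475 at 5 h (n = 3, log2 SD 0.27). All 21 libraries from 2 to 8 h lay below the lowest 0 h value, with 1061 as their highest. The difference was -0.97 ± 0.15 at 2 to 4 h (adjusted p = 8.07e-06) and -1.17 ± 0.13 at 5 to 8 h (7.77e-09), or 2.25-fold lower. The 12 h values were 1418, 1342 and 1304, back near 0 h, and the rise from 5 to 8 h to 12 to 18 h was 1.11 ± 0.11 (3.72e-10).

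The other tested probe set of Igfbp5 (1387348_at) moved the same way with more spread, from 296 to 817 at 0 h to 62 to 360 at 2 to 4 h and 85.2 to 428 at 5 to 8 h. Its differences were -1.32 ± 0.36 (adjusted p = 0.0117) and -1.39 ± 0.31 (0.00196), with a later rise of 0.96 ± 0.27 (0.0126). The first call was lost without 0 h number 1 (0.0812), without 4 h number 2 (0.0628) or without arrays lettered b and c (0.0566), and the rise without 12 h number 1 (0.0947) or 18 h number 2 (0.0566). The remaining, dim probe set (1387347_at) was under the filter. Without the filter its differences were -2.14 (0.00102) and -1.83 (0.00121).

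Podocyte markers, and more unevenly endothelial ones, were lower in windows in which Igfbp5 and Igf2r were lower. The summed signal of the podocyte genes (4 of 5 on the array, all above the filter) was 788 to 1086 at 0 h, 498 to 672 at 2 to 4 h, 428 to 734 at 5 to 8 h and 842 to 1053 at 12 to 18 h. That of the endothelial genes (5 of 6 on the array, 4 above the filter) was 849 to 1214 at 0 h (median 1021), 615 to 947 at 0.25 to 1 h (812), 563 to 727 at 2 to 4 h (631), 488 to 1189 at 5 to 8 h (766) and 753 to 1010 at 12 to 18 h (832). Its median was thus also below that of 0 h at 0.25 to 1 h and 12 to 18 h. In neither window did Igfbp5 or Igf2r pass the test. On their brightest probe sets the differences at 0.25 to 1 h were -0.17 ± 0.13 and -0.55 ± 0.21. In that window 7 and 8 of 12 libraries lay below the lowest 0 h value. At 12 to 18 h the differences were -0.06 ± 0.15 and -0.32 ± 0.23. The macrophage sum, unlike the podocyte and endothelial ones, rose at 2 to 4 h, from 320 to 478 to 657 to 882. The proximal tubule sum was 12480 to 13907 at 0 h and 10530 to 14109 at 2 to 4 h. None of the markers was at 0, and their part in the member results was not tested. In whole kidney, fewer cells of a type and less RNA per cell cannot be told apart.

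Igfbp3, the main carrier of IGFs in blood, rose at 5 to 8 h on 1 of its 2 probe sets. The brighter one (1386881_at) read 254, 305, 233 and 603 at 0 h. At 2 to 4 h it read 340 to 590 with a median of 468, at 5 to 8 h 419 to 728 with a median of 586, and its highest mean was 629 at 7 h (n = 3, log2 SD 0.14). Number 4 at 0 h, at 603, overlapped these ranges, and the 3 other values at 0 h lay below every library from 2 to 18 h. The difference was 0.82 ± 0.19 at 5 to 8 h (adjusted p = 0.00323). At 2 to 4 h it was 0.52 ± 0.22 (0.133), and without 0 h number 4 it was 0.82 (0.0135). The dimmer probe set (1367652_at) differed by 0.05 ± 0.25 at 2 to 4 h (0.923) and by 0.05 ± 0.22 at 5 to 8 h (0.933), so the probe sets of this gene disagree.

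Igfbp4, a binding protein that mostly inhibits IGF action, read 348, 414, 335 and 437 at 0 h on its single probe set (1371462_at). At 2 h it read 695, 469 and 451 and at 4 h 622, 617 and 690, all 6 above the range at 0 h. The difference of 0.60 ± 0.20 passed narrowly (adjusted p = 0.046) and was lost when any of 15 libraries was left out, the 4 at 0 h among them (up to 0.142 without 0 h number 3). Some of the 15, such as those of 48 h, are in neither group compared. Without any 1 of these the difference stayed at 0.60, with an adjusted p of 0.0501 to 0.0504. The call was also lost with no filter (0.0666), under quantile normalization (0.0597) and without arrays lettered b and c (0.103). At 5 to 8 h the difference was 0.43 ± 0.17 (0.12). The step from 5 to 8 h to 12 to 18 h was -0.46 ± 0.15 (0.034), with the lowest mean of 292 at 18 h, and it was lost without any of 7 libraries.

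Igfbp2, abundant in fetal tissue and raised in fasting, passed the test in no window. Its probe set (1367648_at) read 220, 241, 224 and 236 at 0 h, 178 to 294 at 2 to 4 h and 186 to 277 at 5 to 8 h. At 30 to 72 h it read 269 to 482, and all 9 libraries lay above the range at 0 h. The late difference of 0.42 ± 0.13 had an unadjusted p of 0.0023 and did not pass (adjusted p = 0.863). The F test over all times passed (adjusted p = 0.0414) but was lost without any of 25 libraries, up to 0.146 without 72 h number 3. Igfbp6, which prefers Igf2, was dim: its brighter probe set (1372168_s_at) read 22.7, 33.3, 31.4 and 19.2 at 0 h, and its time means stayed between 17.5 and 45.9. Its dimmer one (1387625_at) read 6.27, 25.1, 5.13 and 4.3 at 0 h and 1.1 to 31.8 at 5 to 8 h, overlapping, and without the filter neither passed in any window against 0 h.

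**Figure D3:**
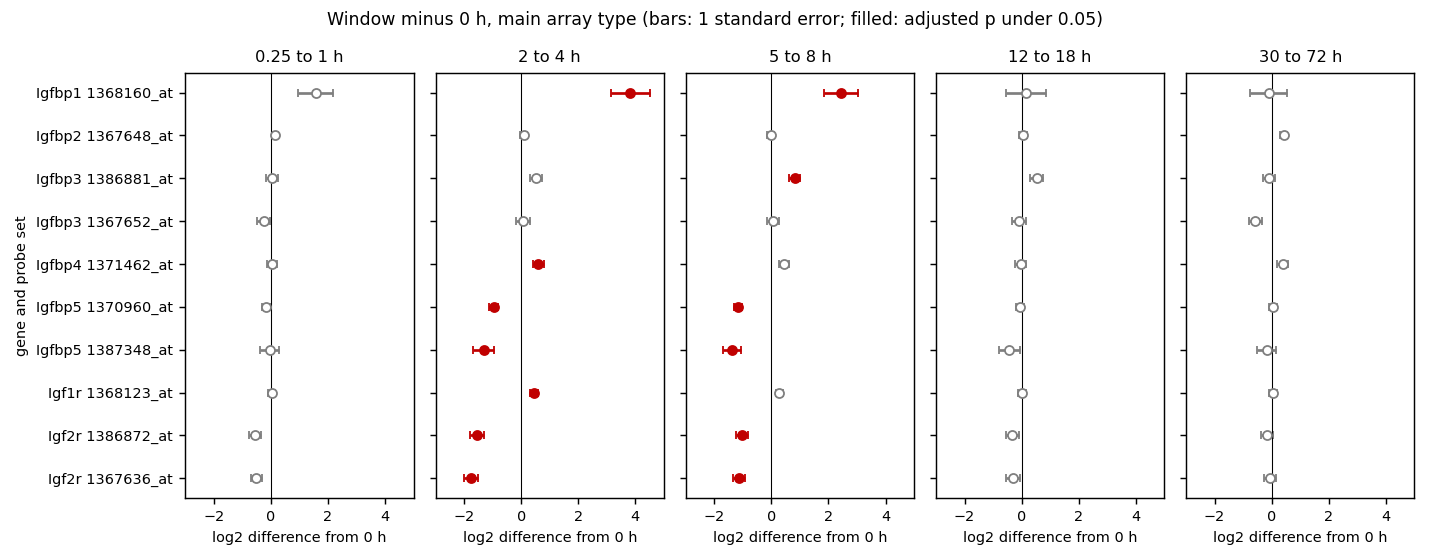
Difference of each window from 0 h (log2 scale) for the 10 tested main-type probe sets; bars are 1 standard error and filled points have an adjusted p under 0.05. Igfbp1 is at 3.82 and 2.45 and both Igf2r and both Igfbp5 probe sets are below 0 at 2 to 4 h and 5 to 8 h, and no point is filled in the other 3 windows.

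Igf1, the ligand, was under the filter on the main type. The brighter probe set (1388469_at) read 66.9, 47.9, 60.3 and 65.5 at 0 h. At 2 h it read 61.5, 109 and 51.6, at 4 h 21.9, 27.9 and 44.7, and at 5 to 8 h 13.6 to 51.7 with a median of 35.6. In 14 of the 15 libraries at 5 to 8 h it lay below the lowest 0 h value, and from 18 h it was back at means of 50.4 to 65.6. Without the filter the difference at 5 to 8 h was -0.68 and did not pass (adjusted p = 0.0537), while the F test over all times did (0.0171). The other probe set (1370333_a_at) read 82.8, 22.3, 13.7 and 51.8 at 0 h, and its difference at 5 to 8 h was -1.01 (0.123). At 2 h it read 15.6, 109 and 12.2. On both probe sets the value of 109 is 2 h number 2, the library with the high hepatocyte sum; Igf1 is also a liver gene, and the part of that RNA was not tested.

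Igf1r, the signalling receptor, rose modestly. Its probe set (1368123_at) read 193, 235, 232 and 199 at 0 h, 355, 290 and 244 at 2 h and 259, 330 and 313 at 4 h, with all 6 treated libraries above the range at 0 h. The difference was 0.45 ± 0.13 (adjusted p = 0.0242), or 1.37-fold. The call was lost without 0 h number 1 (0.0888), 0 h number 4 (0.0781), 2 h number 1 (0.0778) or 4 h number 2 (0.064), and without arrays lettered b and c (0.0785). At 5 to 8 h it read 171 to 354, overlapping 0 h, with a difference of 0.28 ± 0.12 (0.131). The F test over all times did not pass (0.0771), but did with array weights (0.000661) and without the 6 libraries of high Fga (0.035).

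Igf2r, the scavenging receptor, fell on both of its probe sets. The brighter one (1386872_at) read 1156, 1493, 1423 and 1898 at 0 h, 629, 534 and 836 at 2 h and 372, 388 and 375 at 4 h. Earlier, at 0.25 to 1 h, it read 686 to 1411, with 8 of 12 libraries below the lowest 0 h value. That count was not tested, and the early difference of -0.55 ± 0.21 did not pass (adjusted p = 0.431). All 6 libraries at 2 to 4 h and 12 of 15 at 5 to 8 h lay below the lowest 0 h value. The difference was -1.55 ± 0.23 at 2 to 4 h, or 2.92-fold lower (adjusted p = 6.56e-06), and -1.03 ± 0.20 at 5 to 8 h (0.000332). The other probe set (1367636_at) differed by -1.76 ± 0.24 (1.22e-06) and -1.13 ± 0.21 (0.000161). At 0.25 to 1 h it differed by -0.51 ± 0.21 (0.577), with 7 of 12 libraries below the lowest 0 h value.

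Within the window of 5 to 8 h the Igf2r values at 7 and 8 h were mostly above those at 5.5 and 6 h. The brighter probe set read 354, 473 and 684 at 5.5 h and 784, 431 and 559 at 6 h, then 1761, 1052 and 668 at 7 h and 743, 1164 and 1369 at 8 h. The values of 668 and 743 are 7 h number 3 and 8 h number 1, both among the 6 libraries of high Fga, and Igfbp5 (1370960_at) was also lowest of its time in them, at 492 and 766. The rise from 2 to 4 h to 5 to 8 h was 0.52 ± 0.17 (adjusted p = 0.0865) on this probe set. It passed without 7 h number 3 (0.0258), without 8 h number 1 (0.0486) and without all 6 (0.64, 0.00459). On the other it was 0.63 ± 0.18 (0.0414), a call lost without any of 12 libraries (up to 0.162 without 2 h number 2), with no filter (0.0596) and without arrays lettered b and c (0.222). Without the 6 libraries it was 0.71 (0.00394). Also without them, the differences from 0 h at 5 to 8 h were -0.91 (0.000454) for the brighter Igf2r probe set and -1.08 (1.56e-08) for the brightest of Igfbp5. The next rise, to 12 to 18 h, was 0.71 ± 0.17 (0.00358) and 0.84 ± 0.18 (0.000947). At 12 h the brighter probe set read 1031, 1488 and 1116.

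The second array type reads other probes at 0, 2 and 6 h. Its libraries were not treated as independent samples, although the labels do not say whether the types share RNA. Over 2455 shared genes, deviations from the time mean correlated between the types at the same time and number in 10 of 10 pairs (r from 0.19 to 0.56). For other numbers r was -0.42 to 0.1. Deviations within a time sum to 0, so the negative values follow in part from the positive ones. At 2 h 3 of 15 member probe sets passed, 2 higher and 1 lower, against 9.8% of the 5244 tested. At 6 h 3 passed, again 2 higher and 1 lower, against 2.35%. Between 6 and 2 h none passed (2 unadjusted; 1.43% of all). Those called were 1 probe set each of Igfbp1, Igf1r and Igfbp5. Both times are compared with the same arrays at 0 h. These tests did not pair samples by number, and with the number as a block fewer member probe sets passed at each time.

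Igfbp1 on the second type read 294, 209, 250 and 160 at 0 h, 3906, 2378 and 4299 at 2 h and 2196, 2628 and 2160 at 6 h. The groups did not overlap, and the differences were 3.92 ± 0.25 (adjusted p = 5.92e-06) and 3.36 ± 0.25 (3.3e-05). The brightest Igf1r probe set read 95.1, 114, 139 and 123 at 0 h, 187, 214 and 242 at 2 h and 211, 209 and 226 at 6 h, again without overlap. Its differences were 0.85 ± 0.19 (0.0186) and 0.86 ± 0.19 (0.0346), the second 0.0585 with the sample number as a block and lost without any of 6 of the 10 libraries (up to 0.156 without 6 h number 3). The other Igf1r probe set differed by 0.60 ± 0.34 (0.256) and 0.47 ± 0.34 (0.735).

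The brightest Igfbp5 probe set of the second type read 405, 266, 175 and 255 at 0 h, 144, 69.7 and 110 at 2 h and 75.8, 114 and 38.3 at 6 h, all treated arrays below 0 h. Its differences were -1.32 ± 0.38 (adjusted p = 0.0479; 0.0549 with the block) and -1.87 ± 0.38 (0.0224), lost without any of 7 and of 5 of the 10 libraries. Among the 7, 6 h number 1 is in neither group of the 2 h difference, which stayed at -1.32 (0.0658). At 2 h the difference was -1.04 (0.136) without number 2, the second-type library with the high hepatocyte sum (1009, beside a median of 214). The next probe set read 264, 251, 45.9 and 371 at 0 h. It differed by -1.77 ± 0.59 (0.0774) and -1.47 ± 0.59 (0.371), and without 0 h number 3, the one at 45.9, these passed (0.00515 and 0.0134).

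Igf2r on the second type read 556, 336, 688 and 962 at 0 h, 438, 354 and 545 at 2 h and 419, 228 and 289 at 6 h. The groups overlapped, and the differences of -0.43 ± 0.33 (adjusted p = 0.41) and -0.96 ± 0.33 (0.231) did not pass. The brightest Igfbp3 probe set read 234, 237, 241 and 469 at 0 h and 428, 395 and 405 at 6 h, a difference of 0.53 ± 0.32 (0.654). Igfbp6 read 44.0, 43.7, 37.2 and 44.7 at 0 h and 57.3, 73.2 and 59.0 at 6 h, without overlap, and its difference of 0.53 ± 0.21 did not pass (0.351).

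The 3 tested Igf1 probe sets differed from 0 h by -0.08 ± 0.25, -1.31 ± 0.49 and -0.79 ± 0.26 at 6 h, in order of brightness, and none passed (adjusted p = 0.969, 0.301 and 0.201). The middle one read 67.9, 49.6, 32.6 and 45.2 at 0 h, 27.6, 121 and 21.8 at 2 h, and 26.1, 16.1 and 11.4 at 6 h. Its 6 h call passed without 2 h number 2 (0.0366), the library with the high hepatocyte sum and the one at 121. That library is in neither group of the 6 h difference, which stayed at -1.31. It enters only through the spread estimated over all times and the adjustment over all probe sets. The 3 tested Igfbp2 probe sets differed by 0.48 ± 0.24, -1.05 ± 0.40 and 0.14 ± 0.41 at 2 h, and none passed (0.21, 0.108 and 0.852). The 3 probe sets under the filter on this type were very dim: 1 of Igfbp5 read 3.26 to 5.49 at 0 h, and 2 of Igf1 read 3.03 to 20.7 and 0.23 to 9.76. Without the filter none of the 3 passed.

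**Figure D4:**
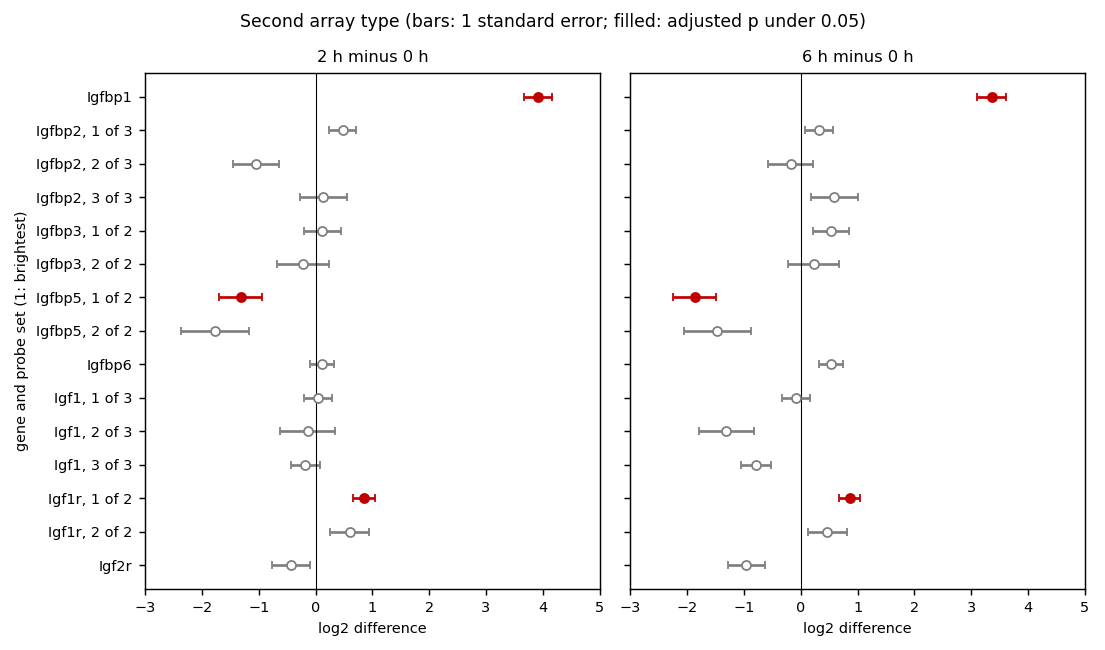
Difference from 0 h (log2 scale) at 2 h and 6 h for the 15 tested member probe sets of the second type, numbered from the brightest of each gene; bars are 1 standard error and filled points have an adjusted p under 0.05. Igfbp1 stands at 3.92 and 3.36, and 1 probe set each of Igf1r (0.85 and 0.86) and Igfbp5 (-1.32 and -1.87) is filled at both times.

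Other genes of the pathway were read from 5 lists with 57 genes, of which 34 (main type) and 28 (second type) were tested. On the main type 2 of 34 passed at 2 to 4 h and 2 at 5 to 8 h, or 5.88% each, beside 9.96% and 9.71% of all probe sets. On the second type 2 of 28 passed at 2 h, or 7.14% beside 9.8%, and none at 6 h (2.35% of all). These shares lie near those of all probe sets and single out no list. Among 18 tested genes of the PI3K, AKT, mTORC1 and FoxO list, 1 passed on the main type, and it rose: Foxo3, a transcription factor that AKT holds out of the nucleus, from a mean of 260 at 0 h to 761 at 2 to 4 h (1.52 ± 0.15, adjusted p = 3.11e-10) and 474 at 5 to 8 h (0.85 ± 0.13, 5.68e-06). Foxo1, its relative, differed by -0.60 ± 0.37 at 2 to 4 h (0.318). The list medians at 2 to 4 and 5 to 8 h were 0.00 and -0.02, beside -0.07 and -0.03 over all probe sets.

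Of 7 tested genes of the insulin receptor family and its adaptors, 1 rose at 2 to 4 h and 1 fell at 5 to 8 h on the main type. Ptpn1, a phosphatase that switches off the insulin and IGF receptors, went from 41 to 125 (1.45 ± 0.41, adjusted p = 0.0169; 0.0562 without 0 h number 4). Grb14, an adaptor that inhibits the insulin receptor, went from 61.3 to 44.2 (-0.41 ± 0.12, 0.0259). The Grb14 call was lost without 0 h number 3 (0.0834) or number 4 (0.16), under quantile normalization (0.0664) and without the 6 libraries of high Fga (0.0604). On the second type at 2 h, of 8 tested genes Ptpn1 rose from 334 to 669 (1.00 ± 0.23, 0.0211) and Grb10, another inhibitory adaptor, fell from 213 to 70.8 (-1.54 ± 0.33, 0.0163). The Ptpn1 call was lost without 0 h number 3 or number 4, and its 4 other probe sets there differed by 0.23 to 1.76, with 1 passing (1.33 ± 0.20, 0.00286). Grb10 on the main type differed by -0.29 ± 0.16 at 2 to 4 h (0.266).

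None of the 4 tested IGFBP protease genes and inhibitors, the 4 of the growth hormone axis or the 1 of the ligand and ternary complex list passed in any window on the main type. Among them Stc1, an inhibitor of the IGFBP protease PAPP-A, differed by -0.40 ± 0.17 at 2 to 4 h (adjusted p = 0.13), and Ghr, the growth hormone receptor, by -0.33 ± 0.30 (0.52). Igfbp7, a distant relative of the binding proteins, was at 2549 at 0 h and 2919 at 2 to 4 h (0.19 ± 0.12, 0.32). On the second type at 2 h, Igf2 differed by -0.35 ± 0.25 (0.361) and Igfals, which joins Igfbp3 and the IGFs in the circulating complex, by 0.21 ± 0.18 (0.468).

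The genes whose course over the 17 time means was most like that of a member are given as a description, with Pearson's r across time means that share their libraries. For Igfbp1 these were Resf1 (0.927), Lrg1 (0.921), a secreted glycoprotein of the acute phase, and Apbb3 (0.919). Several time means of Igfbp1 include a library of high Fga that lies above the others of its time. Whether these r follow such libraries or the time course was not tested. For Igfbp5 they were Nlrp6 (0.967), B3galt5 (0.958) and Plau (0.956), the urokinase plasminogen activator. For Igf2r they were Snx6 (0.947), a sorting nexin, Asah1 (0.935), the lysosomal acid ceramidase, and Slc29a1 (0.927), a nucleoside transporter. For Igfbp3 they were Eif4ebp3 (0.958), Sult1b1 (0.949) and Tspo (0.945). For Igfbp4 they were Ncdn (0.86), Csnk1g2 (0.83) and Sun2 (0.81), and for Igfbp2 Stk16 (0.861), Apom (0.822) and Ergic3 (0.821). Igf1r, which the F test did not call, and Igf1 and Igfbp6, under the filter, were not matched.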

How the data were processed

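Kidney total RNA was measured on Affymetrix arrays. The deposited intensities are linear and above 0. The authors scaled each array, as the intensities show: the trimmed mean was 150.03 to 150.04 on the main type and 150.19 to 150.23 on the second. The sources used here do not name the algorithm behind them. Both types were tested separately on log2(intensity + pseudocount), with 7.55 and 3.54 as pseudocounts (the 10th percentile), so differences of dim probe sets are understated. Controls (57 and 59) and probe sets under the 40th percentile of the mean level (signals of 52.3 and 25.3) were left out, leaving 9520 of 15923 and 5244 of 8799. Arrays a and b of 5 h number 1 were averaged. The platform annotation named the genes, with symbols brought up to date from RefSeq tables.

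limma 3.58.1 (R 4.3.3; lmFit, eBayes with trend) fitted 1 mean per time, and windows weight their times equally. The Benjamini-Hochberg threshold was 0.05. All member probe sets are described, and other genes are named from the pathway lists where they passed, or as the 3 genes most like each member that the F test called. Igfbp7, Stc1, Ghr, Igf2, Igfals, Foxo1 and Fga were named after their values were seen. Members and lists were chosen with earlier results of these data known. Python 3.11.15, numpy 2.4.6, pandas 2.3.3, scipy 1.17.1 and matplotlib 3.10.9 made tables and figures.

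The fits were tested on simulated data with independent normal noise around the mean of each probe set. The main-type fit at 2 to 4 h found 93% of probe sets changed by 1 on the log2 scale and 100% of those changed by 2. The second-type fit at 2 h found 36% and 86%. They also called 7 and 1 unchanged probe sets. The simulation held no libraries that deviate together, as the real ones do, so these shares need not hold for the data. On the second type, same-numbered samples of different times deviated together in 9 of 9 pairs (r from 0.1 to 0.36). That is a reading of the data and not of the labels. The main fit left the number out, and a separate fit used it as a block.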

Additional observations from a re-analysis of the deposited data

Results flagged for a closer look

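At 0 h, where a group of 4 samples allows a test for a lone value, 3 of 25 tested member probe sets had a sample whose gap to its nearest neighbour, as a share of the group's range, was over Dixon's critical value; chance gives about 1 in 20 groups. Igfbp5 (1370960_at, main type) read 1326 in number 1, with a gap of 0.87 of the range. The brightest Igfbp3 probe set of the second type read 469 in number 4 (0.96), the number that was also the highest of the 4 on the main type. Igfbp6 on the second type read 37.2 in number 3 (0.88).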

How the results depend on the processing

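No called member result changed its direction under any alternative run. Of 10 member probe sets on the main type, array weights gave 2 calls at 0.25 to 1 h (0 without), leaving out arrays lettered b and c gave 4 at 2 to 4 h (7 with them), and leaving out each library in turn gave 4 to 7. Between 2 to 4 h and 5 to 8 h, where 1 was called, no filter gave 0, array weights 6, the lack of arrays b and c 0, the lack of the library with the high hepatocyte sum 0, the lack of the 6 libraries of high Fga 3, and leaving out each library 0 to 3. From 12 to 18 h to 30 to 72 h, where none was called, array weights gave 1 and leaving out each library 0 to 1. At 6 h on the second type, with 3 called, leaving out each library gave 1 to 4. On the main type, 149 of 408 same-numbered pairs of different times had r over 0.1, beside 136 of 864 other-numbered pairs. That share was higher among same-numbered pairs, but the medians were only 0.05 and -0.02. Any pairing by number was thus weak there, and the main fit did not use it. A replicate block there gave 7 member calls over any time, 7 at 2 to 4 h, 6 at 5 to 8 h and 1 from 12 to 18 h to 30 to 72 h. On the second type the block gave 2 at 2 h and 2 at 6 h. Of 65 single results, 4 times the pseudocount kept the call of 65, quantile normalization of 63, no filter of 61, the block of 56 and array weights of 49. Over all probe sets, array weights moved the calls over any time from 1535 to 4605, at 0.25 to 1 h from 63 to 146, at 2 to 4 h from 948 to 2403, at 12 to 18 h from 37 to 65, from 0.25 to 1 h to 2 to 4 h from 1110 to 2516, from 2 to 4 h to 5 to 8 h from 295 to 2746 and from 12 to 18 h to 30 to 72 h from 87 to 157. The same 3 steps gave 572, 90 and 47 calls without arrays b and c, which also gave 916 over any time and 744 from 5 to 8 h to 12 to 18 h (1131 with them), and 1881, 1230 and 143 without the libraries of high Fga. The block gave 35 at 0.25 to 1 h, and a fit of 12 to 18 h and 0 h alone gave 21. On the second type array weights gave 254 at 6 h (123 without) and 144 between 6 and 2 h (75 without), and the lack of the library with the high hepatocyte sum gave 217 and 160. Leaving out each library gave as few as 36 calls at 0.25 to 1 h, 19 at 12 to 18 h, 596 from 0.25 to 1 h to 2 to 4 h, 142 to 551 from 2 to 4 h to 5 to 8 h, 233 at 2 h on the second type (514 with all), 71 to 217 at 6 h and 13 to 160 between them. The cause of these shifts was not tested.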
